A study of Mus musculus with 36 samples.

Results

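The comparison was between the small RNA of left ventricles 1 week after myocardial infarction (MI) and that of left ventricles 1 day after MI. Its members were the 350 microRNAs with an RPM (microRNA reads scaled to a fixed library total) of at least 10 in at least 3 of the 6 infarct libraries, of 624 microRNAs in the count table. The mice were C57BL/6 males operated on at 8 weeks of age. In the MI groups the proximal left anterior descending coronary artery was tied, and the sham groups had the operation without occlusion of that artery. The groups used were MI 1 week, MI 1 day, sham 1 week and sham 1 day, with 3 small RNA libraries each, 12 of the 18 small RNA libraries among 36 libraries in all. RNA was pooled from several ventricles, and the labels do not state that the libraries of a group came from separate animals. The p-values therefore rest on library-to-library spread alone, which may be technical. The labels name the left ventricle and give no separation of infarct from remote muscle.

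A microRNA is a short RNA cut from a hairpin precursor, and it pairs through its seed, bases 2 to 8, with messenger RNAs and lowers their translation and stability. Striated muscle is known for miR-1, miR-133, miR-208 and miR-499, neutrophils for miR-223, red cells for miR-144, miR-451 and miR-486, endothelium for miR-126, and scar-forming fibroblasts for miR-21, miR-199 and miR-214. In the mouse heart neutrophils enter the infarct within the first days, and macrophages and myofibroblasts follow as the scar forms. In RNA of a whole ventricle, fewer cells of a type and less of a microRNA per cell cannot be told apart.

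A mature sequence was found in RefSeq (GRCm38.p6) for 296 of the 350 tested microRNAs. The sequences of leading microRNAs that were higher at 1 week follow, 5′ to 3′, with the seed in capitals. They are shown because the largest rises came with different seeds.
miR-341-3p: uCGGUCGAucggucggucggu
miR-541-5p: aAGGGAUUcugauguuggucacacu
miR-409-5p: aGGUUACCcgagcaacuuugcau
miR-434-5p: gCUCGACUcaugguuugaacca
miR-127-3p: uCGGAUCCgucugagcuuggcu
miR-214-3p: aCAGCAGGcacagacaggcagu
miR-199a-5p: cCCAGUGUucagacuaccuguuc
miR-199a-3p: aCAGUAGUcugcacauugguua
miR-21a-5p: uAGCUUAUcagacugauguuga
miR-31-5p: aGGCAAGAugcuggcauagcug
miR-182-5p: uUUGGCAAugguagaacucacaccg
miR-34a-5p: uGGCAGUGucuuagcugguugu
miR-34b-5p: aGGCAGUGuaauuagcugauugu
Of these 13, only miR-34a-5p and miR-34b-5p have the same seed.

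Leading microRNAs that were lower at 1 week are shown in the same way, with miR-208b-3p, which did not pass the test, beside its seed relative miR-208a-3p. Among them are families with 1 seed and the 2 microRNAs with the largest falls.
miR-208a-3p: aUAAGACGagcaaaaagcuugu
miR-208b-3p: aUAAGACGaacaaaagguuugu
miR-499-5p: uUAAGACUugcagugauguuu
miR-378b: cUGGACUUggagucagaaga
miR-378c: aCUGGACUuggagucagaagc
miR-378d: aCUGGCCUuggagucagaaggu
miR-223-3p: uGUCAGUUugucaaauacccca
miR-144-3p: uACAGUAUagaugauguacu
miR-30a-5p: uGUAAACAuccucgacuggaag
miR-29a-3p: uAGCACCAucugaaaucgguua
miR-29b-3p: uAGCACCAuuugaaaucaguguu
miR-29c-3p: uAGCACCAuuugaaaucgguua
miR-126a-3p: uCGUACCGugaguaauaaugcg
miR-6240: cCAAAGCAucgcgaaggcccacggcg
miR-2137: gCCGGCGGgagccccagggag
miR-208a-3p and miR-208b-3p have 1 seed, and miR-499-5p has another. miR-29a-3p, miR-29b-3p and miR-29c-3p have 1 seed. The 3 miR-378 relatives have different seeds, and how reads that match several of them were assigned is not given in the sources used here.

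Between 1 day and 1 week most of the measured microRNAs of the infarcted ventricle changed. Of the 350 tested, 158 were higher at 1 week (45.1%) and 129 were lower (36.9%) at an adjusted p below 0.05 (edgeR quasi-likelihood test, Benjamini-Hochberg adjustment), and 63 were not called. The change was over 2-fold for 103 of the higher and 73 of the lower ones, and over 8-fold for 48 and 17. Normalized CPM (counts scaled in the same way, with TMM factors) of the 2 groups of 3 libraries did not overlap for 294 of the 350 (84.0%).

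The split between the directions depended on how libraries were scaled. The TMM factors of edgeR, which assume that most microRNAs do not change, were 1.18 to 1.25 at 1 week and 0.81 to 0.83 at 1 day. With them the median log2 fold change of all tested was 0.15, and with library totals alone it was 0.72, with 212 higher and 77 lower. With median-ratio (RLE) factors the median was -0.01, with 139 higher and 142 lower. Of the calls, 138 of the 158 higher and 77 of the 129 lower were made in the same direction with RLE, with upper-quartile factors, with totals alone and by DESeq2. None of the higher and 21 of the lower ones changed sign under one of these. Fold changes are given on the TMM scale. The list counts and medians below stand against the 45.1% higher, 36.9% lower and median of 0.15 of all 350 tested.

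The filter also shaped the counts. In 257 microRNAs all 6 libraries were at 10 RPM or more, and 91 of these were higher and 106 lower, with a median log2 fold change of -0.04. Another 71 reached that level in each 1 week library but not in each 1 day library, and 20 the reverse, so their direction was in part set by the filter. Library totals were 28647053 to 31798587 microRNA reads at 1 week, 12094554 to 15999649 at 1 day and 35125471 to 39054674 in the 6 sham libraries. Reads thinned to the smallest total gave 149 higher and 131 lower. The 10 most abundant named microRNAs of each library held 58.2 to 60.2% of its summed counts at 1 week and 67.3 to 67.9% at 1 day. Among the tested microRNAs 9 sets, with 19 members, had equal counts in all 18 libraries. miR-199a-3p with miR-199b-3p and miR-486a-5p with miR-486b-5p were such pairs among the most abundant. Their reads were counted under each name, so totals and shares of reads hold them more than 1 time.

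**Figure D1:**
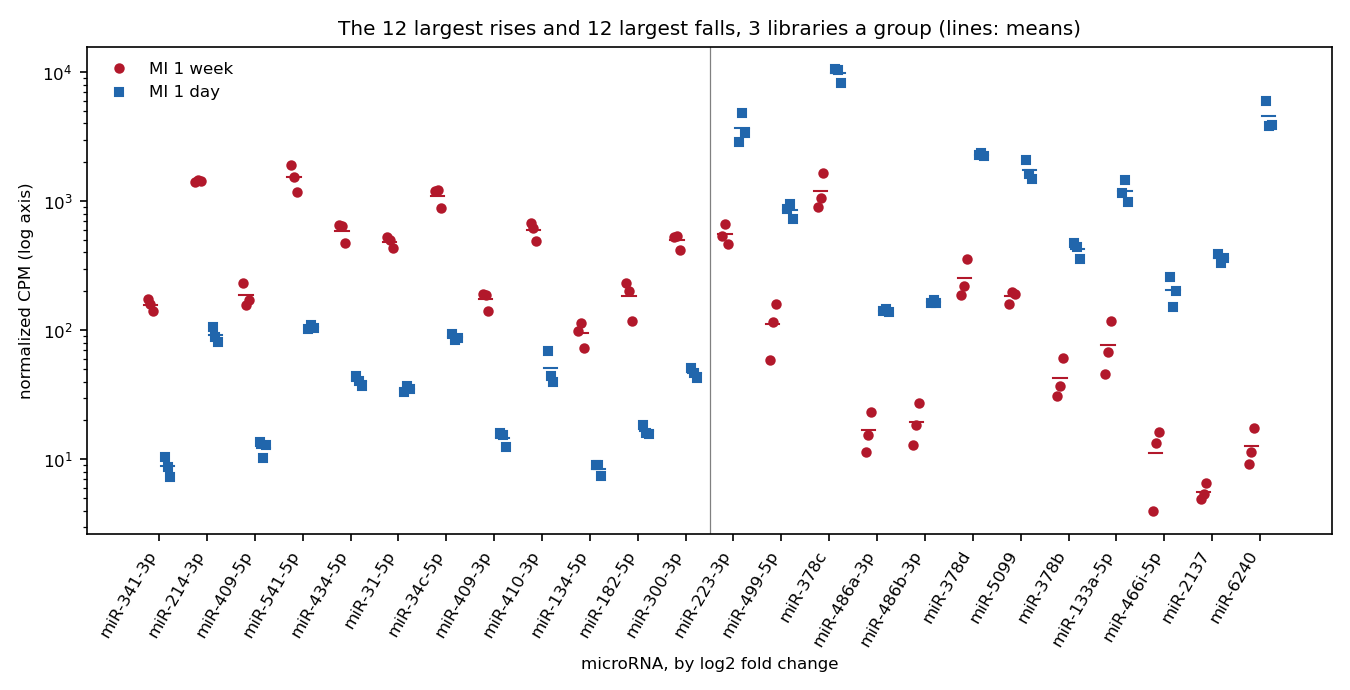
Normalized CPM (log axis) of the 12 largest rises (left of the line) and 12 largest falls among microRNAs with a mean of at least 50 RPM, for each of 3 MI 1 week libraries (red circles) and 3 MI 1 day libraries (blue squares), with group means as lines. The groups are apart for all 24, and miR-6240 spans the widest gap, at 9.22 to 17.6 CPM at 1 week and 3841 to 6010.5 CPM at 1 day.

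The largest group of rises came from 1 place in the genome, the imprinted Dlk1-Dio3 domain of chromosome 12, where the maternal copy gives long transcripts that hold arrays of microRNA hairpins. Of 62 listed microRNAs of the domain 46 were tested, and all 46 were higher at 1 week, with log2 fold changes of 0.82 to 5.35 and a median of 3.39, against 0.15 for all tested. Of the 46, 33 were below 10 RPM in at least 1 of the 6 libraries, so the filter had a part in their direction. The other 13 had at least 10 RPM in all 6 libraries, and all 13 were higher, with a median of 3.29. All 17 members with a mean of at least 50 RPM were higher too. The 16 members that were not tested had at most 13 RPM as a group mean, and each had a higher mean RPM at 1 week. Together the 62 members held 3.57, 3.43 and 2.74% of microRNA reads in the 1 week libraries, and 0.275, 0.240 and 0.213% in the 1 day libraries. The groups did not overlap, and the third 1 week library had the smallest share.

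The most abundant member was miR-127-3p, which lies antisense to the imprinted gene Rtl1. It had 15296, 15306 and 13237 CPM at 1 week and 1899, 1617 and 1408 CPM at 1 day, a log2 fold change of 3.15 ± 0.15 (standard error, adjusted p = 3.99e-07). Every 1 week library was above every 1 day library. miR-411-5p, next in abundance, had 4454, 4472 and 3394 CPM at 1 week and 461, 427 and 374 CPM at 1 day (log2 fold change 3.29 ± 0.16). For miR-541-5p the values were 1894, 1537 and 1186 CPM at 1 week and 103, 109 and 104 CPM at 1 day (log2 fold change 3.87 ± 0.19). In all 3 of them the groups were far apart, and the third 1 week library was the lowest of its group.

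The largest change among members above a mean of 50 RPM was that of miR-341-3p, with 174, 159 and 141 CPM at 1 week against 10.4, 8.70 and 7.30 CPM at 1 day, with no overlap (log2 4.17 ± 0.18, adjusted p = 2.71e-07). Both arms of the miR-409 hairpin and of the miR-434 hairpin rose. miR-409-5p had 232, 158 and 172 CPM at 1 week and 13.6, 10.2 and 12.8 CPM at 1 day, and miR-434-5p had 649.9, 639.6 and 469.6 CPM at 1 week and 43.8, 40.4 and 37.2 CPM at 1 day. Their log2 fold changes were 3.94 and 3.86, and those of the opposite arms, miR-409-3p and miR-434-3p, were 3.57 and 2.68. miR-410-3p, miR-134-5p and miR-300-3p, also among the 12 largest rises, changed by 3.55, 3.49 and 3.40 in log2.

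The domain holds 2 dense arrays on the plus strand (coordinates of RefSeq, GRCm38.p6). In the first, chr12:109563692-109595388 with 14 hairpins, 13 tested microRNAs were all higher, with a median log2 fold change of 3.15. In the second, chr12:109709060-109747960 with 36 hairpins, 26 tested microRNAs were all higher, with a median of 3.45. The smallest change was that of miR-136-5p (0.82), whose opposite arm miR-136-3p changed by 2.49 (both named after their values were seen). Of the 52 tested microRNAs with a single locus on chromosome 12, 45 were higher and 5 lower. On the other chromosomes with at least 10 such microRNAs the median log2 fold change was between -0.70 and 0.56.

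The long RNAs of the domain were measured in the mRNA libraries of the same groups, 3 per group, in FPKM. These genes were picked for this description after the microRNA values were seen. Meg3, the maternally expressed long RNA at the start of the microRNA arrays, was at 41.5, 39.1 and 36.9 FPKM at 1 week and at 2.49, 2.21 and 2.28 FPKM at 1 day, a difference of 3.59 ± 0.08 in log2(FPKM + 1) (limma, adjusted p = 1.05e-08). Rian, the next transcript, was at 29.2, 30.8 and 22.98 FPKM at 1 week and at 1.92, 1.95 and 1.77 FPKM at 1 day, a difference of 3.30 ± 0.11 (adjusted p = 7.42e-08). Mirg, which holds the second array, was at 2.44, 2.42 and 1.56 FPKM at 1 week and at 0.252, 0.215 and 0.136 FPKM at 1 day. All 3 were higher at 1 week in each library. The protein-coding genes at the ends of the domain were low, with Dlk1 at 0.108 ± 0.0774 FPKM at 1 week and 0.0132 ± 0.00676 FPKM at 1 day (mean ± s.d., n = 3) and Dio3 at 1.75 ± 0.0208 FPKM at 1 week and 0.201 ± 0.00744 FPKM at 1 day.

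**Figure D2:**
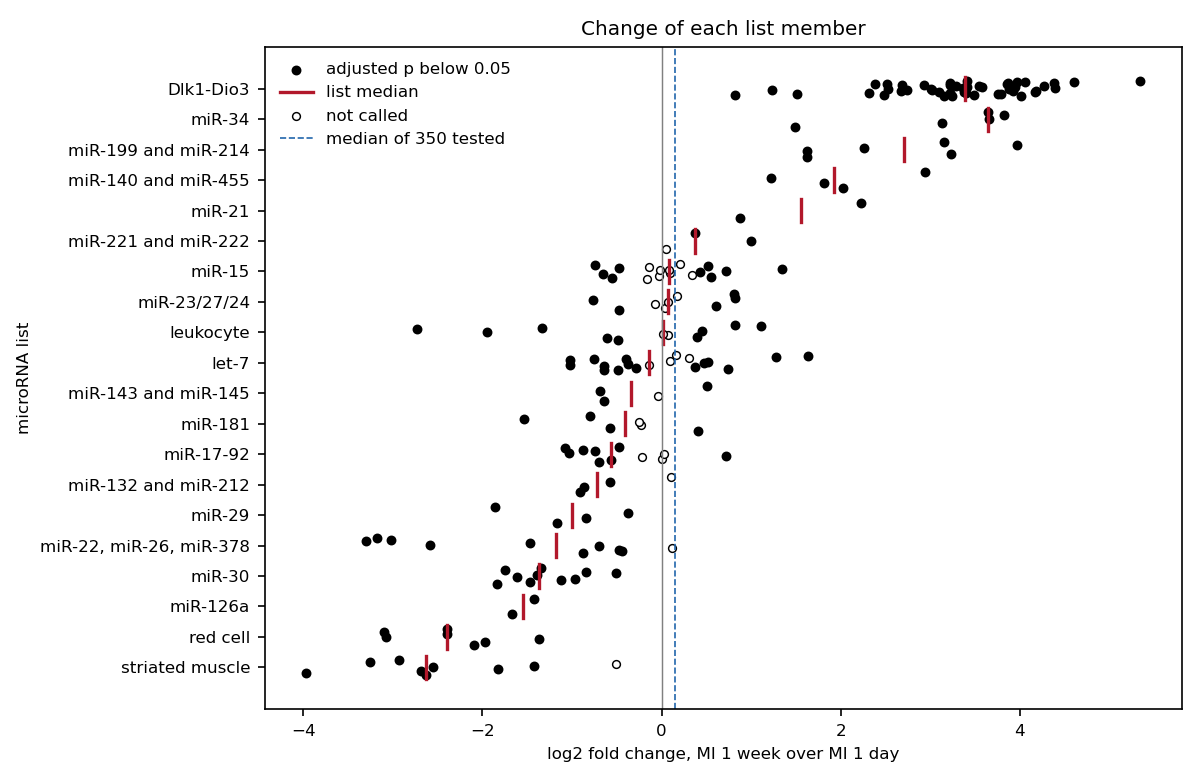
Log2 fold change of MI 1 week over MI 1 day for each tested member of 20 microRNA lists (filled: adjusted p below 0.05, open: not called), with list medians as red bars and the median of the 350 tested (0.15) dashed. All members of the Dlk1-Dio3, miR-34, miR-199 and miR-214, miR-140 and miR-455, and miR-21 lists are right of 0, and all members of the miR-29, miR-30, miR-126a, red cell and striated muscle lists are left of it.

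All 6 microRNAs of the miR-199 and miR-214 list, which come from the Dnm3os transcript of chromosome 1 and from related loci, were higher, with log2 fold changes of 1.62 to 3.97. miR-214-3p had 1403, 1463 and 1421 CPM at 1 week and 106, 87.8 and 81.01 CPM at 1 day, 15.6-fold (log2 3.97 ± 0.14, adjusted p = 1.31e-07). The 1 week libraries lay within a narrow range. miR-199a-5p had 12753, 11136 and 11686 CPM at 1 week and 1336, 1213 and 1247 CPM at 1 day (log2 3.23 ± 0.11). Its opposite arm miR-199a-3p was the more abundant, at 46784, 50151 and 48562 CPM at 1 week and 17185, 17641 and 12484 CPM at 1 day, and changed less (log2 1.62 ± 0.15). The counts of miR-199a-3p and miR-199b-3p were equal in every library, so these are the same reads. The transcript itself, Dnm3os, was at 9.85 ± 1.23 FPKM at 1 week and 0.587 ± 0.0961 FPKM at 1 day (mean ± s.d., n = 3), a difference of 2.77 ± 0.10 in log2(FPKM + 1).

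miR-21a-5p, raised in fibroblasts of the stressed heart and in many growing tissues, became the second most abundant microRNA at 1 week, with 7.79% of reads, against 1.11% at 1 day. It had 74752, 60419.8 and 55879.6 CPM at 1 week and 13117, 13831 and 13784 CPM at 1 day (log2 fold change 2.23 ± 0.13, adjusted p = 8.46e-07). Every 1 week library was above every 1 day library. The other arm, miR-21a-3p, rose less, with 1423, 1563 and 1339 CPM at 1 week and 826, 896 and 637 CPM at 1 day (log2 0.87 ± 0.15). Vmp1, in whose 3′ part the miR-21a hairpin lies, was at 39.2 ± 3.53 FPKM at 1 week and 41.5 ± 4.58 FPKM at 1 day, and did not pass the test (difference -0.08 ± 0.11, adjusted p = 0.507), while after quantile normalization it was lower (-0.40, adjusted p = 0.00276).

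In the activated fibroblast list of the mRNA libraries (10 genes, among them collagens), all 10 were higher at 1 week, and their summed level was 14735 to 18895 FPKM at 1 week and 219.8 to 270.2 FPKM at 1 day. All 6 proliferation genes were higher, with sums of 42.9 to 64.5 FPKM at 1 week and 1.24 to 1.57 FPKM at 1 day. Of all 12395 mRNAs tested, 65.5% were higher and 16.1% lower, with a median difference of 0.51 in log2(FPKM + 1). No defining marker of these lists was at 0. The part of cell composition in the rises above was not tested.

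The miR-34 family, known as targets of p53, rose as well: all 5 tested members were higher, against 45.1% of all tested. However, 3 of them were under 10 RPM at 1 day. miR-34c-5p, with 1203, 1222 and 890.1 CPM at 1 week and 94.02, 83.9 and 86.5 CPM at 1 day, rose 12.5-fold (log2 3.65 ± 0.16, adjusted p = 2.99e-07). miR-34b-5p, from the same primary transcript, had 48.9, 36.05 and 34.5 CPM at 1 week and 3.34, 3.32 and 2.86 CPM at 1 day (log2 3.65). miR-34a-5p, from a locus on chromosome 4, had 132, 133 and 124 CPM at 1 week and 50.2, 47.3 and 40.6 CPM at 1 day (log2 1.49 ± 0.13). The miR-34b and miR-34c members changed more than the miR-34a member with which miR-34b-5p shares its seed.

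Outside any list, miR-31-5p and miR-182-5p were among the 12 largest rises. miR-31-5p had 523, 502 and 431 CPM at 1 week and 33.2, 36.7 and 35.3 CPM at 1 day (log2 3.79 ± 0.13), and miR-182-5p had 232, 199.8 and 117 CPM at 1 week and 18.4, 15.8 and 15.6 CPM at 1 day (log2 3.46 ± 0.26). Neither overlapped, and the third 1 week library was the lowest for both.

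The 4 microRNAs held in introns of Wwp2 and Col27a1, both abundant in cartilage, were all higher. miR-140-3p had 5722, 4771 and 4353 CPM at 1 week and 1165, 1296 and 1175 CPM at 1 day (log2 2.03 ± 0.13), and miR-140-5p changed by 1.81. miR-455-5p had 118, 115 and 102 CPM at 1 week and 14.98, 13.2 and 15.5 CPM at 1 day (log2 2.94 ± 0.14), and miR-455-3p changed by 1.23. Wwp2 was at 15.6 ± 1.03 FPKM at 1 week and 8.82 ± 1.18 FPKM at 1 day, and Col27a1, a fibrillar collagen, at 8.21 ± 0.443 FPKM at 1 week and 1.18 ± 0.112 FPKM at 1 day.

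The microRNAs of striated muscle fell. Of 9 tested, 8 were lower, against 36.9% of all tested, with a median log2 fold change of -2.63. The exception was miR-208b-3p. All 10 listed members together held 1.24, 2.60 and 4.20% of microRNA reads in the 3 libraries of 1 week, and 11.8, 10.7 and 10.9% in those of 1 day. The 1 week libraries thus differed over 3-fold from each other, and those of 1 day hardly. With each library left out in turn, 8 or 9 of the 9 were lower.

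miR-133a-3p, which restrains growth of heart muscle cells, was the most abundant of them, at 9107, 19902 and 33566 CPM at 1 week and 137692, 124302 and 125554 CPM at 1 day. The groups were far apart despite the wide spread at 1 week (log2 fold change -2.63 ± 0.40, adjusted p = 0.000293). Its opposite arm, miR-133a-5p, had 45.9, 68.03 and 117 CPM at 1 week and 1146, 1469 and 993 CPM at 1 day (log2 -3.97 ± 0.35). miR-1a-3p had 326, 539.6 and 855 CPM at 1 week and 2299, 2037 and 1745 CPM at 1 day (log2 -1.82 ± 0.31).

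The myosin microRNAs parted from each other. miR-208a-3p, from an intron of the adult myosin gene Myh6, had 129, 186 and 307 CPM at 1 week and 1213, 1254 and 1165 CPM at 1 day, so it was lower at 1 week without overlap (log2 -2.55 ± 0.29, adjusted p = 3.95e-05). miR-208b-3p, from the fetal myosin gene Myh7 and with the same seed, had 145, 214 and 280.2 CPM at 1 week and 313, 335 and 259 CPM at 1 day. These groups overlapped and the change of -0.50 ± 0.23 did not pass the test (adjusted p = 0.0653), though it was called lower with RLE factors and by DESeq2 and was 0.06 with totals alone. miR-499-5p, from Myh7b, had 58.7, 115 and 160.4 CPM at 1 week and 867, 952 and 724 CPM at 1 day (log2 -2.93 ± 0.33). Of the host mRNAs, Myh6 was at 301 ± 225 FPKM at 1 week and 734 ± 99.3 FPKM at 1 day (difference -1.55 ± 0.47 in log2(FPKM + 1), adjusted p = 0.0143), and Myh7 at 82.4 ± 36.99 FPKM at 1 week and 39.4 ± 2.81 FPKM at 1 day (difference 0.95 ± 0.29, adjusted p = 0.0142). After quantile normalization the rise of Myh7 no longer passed (adjusted p = 0.103).

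In the mRNA libraries 9 of 12 cardiomyocyte markers were lower at 1 week and none was higher. Of all mRNAs tested, 16.1% were lower and 65.5% higher. The summed level of the cardiomyocyte markers was 1873 to 5886 FPKM at 1 week and 9900 to 12301 FPKM at 1 day. The 1 week libraries thus also differed over 3-fold in mRNA. In replicate order the 1 week sums were 1873, 3066 and 5886 FPKM, the same order as the muscle microRNA shares. The labels give both kinds of library the same replicate numbers and sample codes but do not say that they came from the same hearts. The part of a loss of muscle cells in the fall of these microRNAs was not tested.

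The miR-378 microRNAs, abundant in adult heart, fell. Of 10 tested in the list that holds them with miR-22 and miR-26, 9 were lower, against 36.9% of all tested. miR-378a-3p, held in Ppargc1b, a gene of mitochondrial metabolism, had 5666, 6218 and 10007 CPM at 1 week and 44080.1, 44752 and 42365 CPM at 1 day (log2 -2.58 ± 0.21). The annotated relatives miR-378b, miR-378c and miR-378d changed by -3.30, -3.02 and -3.18, and the third 1 week library was the highest for each. Of the most abundant microRNAs of the ventricle, miR-22-3p had 72602, 95850.0 and 89909 CPM at 1 week and 154932, 163131 and 155932 CPM at 1 day (log2 -0.88 ± 0.12). miR-26a-5p changed by -0.48 ± 0.10 and miR-143-3p by -0.64 ± 0.10, both called lower with TMM factors, but with totals alone miR-26a-5p had a change of 0.10 and neither was called. miR-27b-3p did not pass the test (log2 0.17 ± 0.10, adjusted p = 0.14), but it was called higher with totals alone, with a change of 0.74.

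Red cell microRNAs were lower throughout: all 7 tested members fell, with log2 fold changes of -3.10 to -1.37. Of all tested, 36.9% were called lower. The 3 tested members of the miR-144 and miR-451a cluster changed by -2.09 to -1.37. The rest of the list were arms of miR-486, and the larger falls were theirs. miR-486a-5p, which striated muscle also expresses, had 16486, 15474 and 25478 CPM at 1 week and 97924, 100269.9 and 104255 CPM at 1 day (log2 -2.40 ± 0.19). Its counts equal those of miR-486b-5p in every library. miR-144-3p, a red cell microRNA, had 183, 154 and 165 CPM at 1 week and 734, 829 and 579 CPM at 1 day (log2 -2.09 ± 0.16), and its cluster neighbour miR-451a had 836, 485 and 520.0 CPM at 1 week and 1394, 1768 and 1607 CPM at 1 day (log2 -1.37 ± 0.21). In the mRNA libraries 5 of 7 erythroid genes were lower, against 16.1% of all mRNAs tested. Their sums were 352.1 to 1306 FPKM at 1 week and 1212 to 2015 FPKM at 1 day, which overlapped. How much blood each ventricle held was not tested.

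Among leukocyte microRNAs the directions were mixed, with 4 of 11 higher, 5 lower and 2 not called, against 45.1% higher and 36.9% lower of all tested. The median log2 fold change of the list was 0.01, with RLE factors it was -0.14, and with totals alone it was 0.59, with 6 higher and 3 lower. miR-223-3p, the myeloid microRNA that neutrophils hold most of, had 539, 667 and 461 CPM at 1 week and 2877, 4847 and 3389 CPM at 1 day, 6.66-fold lower at 1 week (log2 -2.74 ± 0.23, adjusted p = 5.45e-06). miR-142a-5p, found in all blood lineages, had 7058, 8171 and 7279 CPM at 1 week and 9799, 13748 and 10835 CPM at 1 day, a much smaller fall (log2 -0.61 ± 0.14) that was not called with totals alone. miR-342-3p, by contrast, had 328, 282 and 289 CPM at 1 week and 142, 149 and 126 CPM at 1 day (log2 1.11 ± 0.12). Beside this, 8 of 9 measured neutrophil mRNAs were lower, against 16.1% of all mRNAs tested. Their sums were 48.4 to 73.9 FPKM at 1 week and 6294 to 10031 FPKM at 1 day. Of 9 macrophage mRNAs 8 were higher and 1 lower, where 65.5% of all mRNAs tested were higher. The macrophage sums were 3650.3 to 4314 FPKM at 1 week and 612.5 to 1025 FPKM at 1 day. The part of these cells in the microRNA changes was not tested.

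The miR-30 and miR-29 families fell. All 10 tested miR-30 microRNAs were lower, against 36.9% of all tested. Their median log2 fold change was -1.37 and their range -1.84 to -0.51. miR-30a-5p, which targets connective tissue growth factor, had 11035, 10230.1 and 12158 CPM at 1 week and 31266, 30138 and 31141 CPM at 1 day (log2 -1.47 ± 0.11, adjusted p = 2.76e-06). miR-30c-5p and miR-30e-5p, with the same seed, changed by -1.39 and -1.34, and miR-30d-5p by -0.84. The miR-29 family targets collagen mRNAs. miR-29a-3p had 1710.3, 2033 and 2123 CPM at 1 week and 4881, 4372 and 3919 CPM at 1 day (log2 -1.17 ± 0.13). miR-29c-3p had 127, 173 and 204 CPM at 1 week and 651, 623 and 557 CPM at 1 day (log2 -1.86 ± 0.18). miR-29b-3p fell by less (log2 -0.38 ± 0.12), and with totals alone its change was 0.20 and not called. With totals alone 8 of the 10 miR-30 microRNAs and 2 of the 4 miR-29 microRNAs were still lower.

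The endothelial microRNAs miR-126a-3p and miR-126a-5p were both lower. miR-126a-3p had 3108, 3574 and 4024 CPM at 1 week and 11766, 11335 and 11090.4 CPM at 1 day (log2 -1.68 ± 0.12), and miR-126a-5p changed by -1.43 ± 0.13. Their host gene Egfl7 was at 45.1 ± 0.438 FPKM at 1 week and 51.4 ± 1.55 FPKM at 1 day, a difference of -0.19 ± 0.07 in log2(FPKM + 1) (adjusted p = 0.0387). Of 8 endothelial mRNA markers 2 were higher and 2 lower, against 65.5% higher and 16.1% lower of all mRNAs tested. Their sums were 336.0 to 355.3 FPKM at 1 week and 333.0 to 379.7 FPKM at 1 day. After quantile normalization the difference of Egfl7 was -0.50 (limma, adjusted p = 0.000189), and with totals alone the median change of the microRNAs was -0.98. The host mRNA therefore changed by less than the microRNAs, and how much less depended on the scaling.

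The 3 largest falls among microRNAs with a mean of at least 50 RPM were in none of the lists. miR-6240 had 9.22, 11.4 and 17.6 CPM at 1 week and 6010.5, 3841 and 3866 CPM at 1 day (log2 -8.49 ± 0.36, adjusted p = 2.71e-07). It lies at chr5:114851973-114851998 on the plus strand (GRCm38.p6). miR-2137, at chrX:72992113-72992133 on the plus strand, had 4.91, 5.35 and 6.50 CPM at 1 week and 391, 334 and 360.2 CPM at 1 day (log2 -6.02 ± 0.16). miR-466i-5p and miR-5099 changed by -4.20 and -3.24. All 4 had a lower mean in both sham groups than in MI 1 day. How reads that also match other RNAs were assigned is not given in the sources used here. Whether the reads of these 4 came from microRNA hairpins was not tested. On the scale of the 12 libraries miR-6240 was at 10.6 ± 3.22 CPM in MI 1 week and 3512 ± 952 CPM in MI 1 day, and at 8.63 ± 0.752 CPM in sham 1 week and 13.02 ± 1.95 CPM in sham 1 day (mean ± s.d., n = 3). Leaving these 4 out of totals and test, an alternative chosen after seeing the data, gave 156 higher and 129 lower of 346.

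Relatives with 1 seed did not always move together. Of the 9 tested microRNAs with the let-7 seed, 2 were higher and 5 lower. let-7i-5p had 8283, 7390.4 and 6553 CPM at 1 week and 2738, 3359 and 3087 CPM at 1 day (log2 1.28 ± 0.13), while let-7a-5p had 6910.3, 6564 and 6740.5 CPM at 1 week and 9387, 10299 and 8683 CPM at 1 day (log2 -0.49 ± 0.10). The rise of let-7i-5p held under each scaling, and the change of let-7a-5p was 0.09 and not called with totals alone. For comparison the 2 seeds are printed here.
let-7i-5p: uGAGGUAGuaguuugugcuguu
let-7a-5p: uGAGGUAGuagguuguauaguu
Of the 11 tested members of the miR-17-92 list and its paralogs 7 were lower and 1 higher with TMM factors, but with totals alone 2 were lower and 3 higher. Of all 350 tested, 129 were lower and 158 higher with TMM factors, and 77 lower and 212 higher with totals alone. The medians of the let-7, miR-143 and miR-145 and miR-181 lists changed sign between these scalings too.

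The arms of a hairpin mostly changed alike. Both arms were tested for 87 hairpins, the change had the same sign in 66, and of 53 hairpins with both arms called, 47 went in 1 direction. Some hairpins share a mature arm, such as the miR-199a hairpins, so these counts are not of independent hairpins. The largest gap was at miR-210, the hypoxia-induced microRNA, where miR-210-5p had 9.01, 13.9 and 11.4 CPM at 1 week and 78.03, 47.1 and 45.4 CPM at 1 day (log2 -2.31), and the abundant arm miR-210-3p had 174, 193 and 174 CPM at 1 week and 222, 183 and 158 CPM at 1 day (log2 -0.06, adjusted p = 0.724). With totals alone miR-210-3p was called higher, with a change of 0.52. In miR-125a the arms went opposite ways, with miR-125a-5p at -1.07 ± 0.14 and miR-125a-3p at 0.99 ± 0.14. In miR-152, miR-125b-1 and miR-455 one arm rose more: miR-152-5p changed by 2.41 and miR-152-3p by 0.53, miR-125b-1-3p by 1.99 and miR-125b-5p by 0.14. However, miR-125b-5p also comes from the miR-125b-2 hairpin, whose other arm, miR-125b-2-3p, changed by 0.01. The miR-125b-5p value is therefore not of 1 hairpin.

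The sham ventricles served as the background for time after surgery. Between sham 1 week and sham 1 day 32 of the 350 microRNAs were higher (9.14%) and 5 lower (1.43%), and these counts rest on few libraries, since leaving out 1 library gave 10 to 39 higher and 3 to 8 lower. The median size of the change was 0.16 in log2 in sham hearts and 1.02 in MI hearts, and 8 microRNAs changed over 2-fold in sham hearts and 176 in MI hearts. The change after MI minus the change after sham was positive for 159 (45.4%) and negative for 117 (33.4%) at an adjusted p below 0.05. This split was 124 and 139 with RLE factors and 199 and 81 with totals alone. Of the 287 microRNAs called in MI hearts, 260 also differed from the sham change in the same direction.

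**Figure D3:**
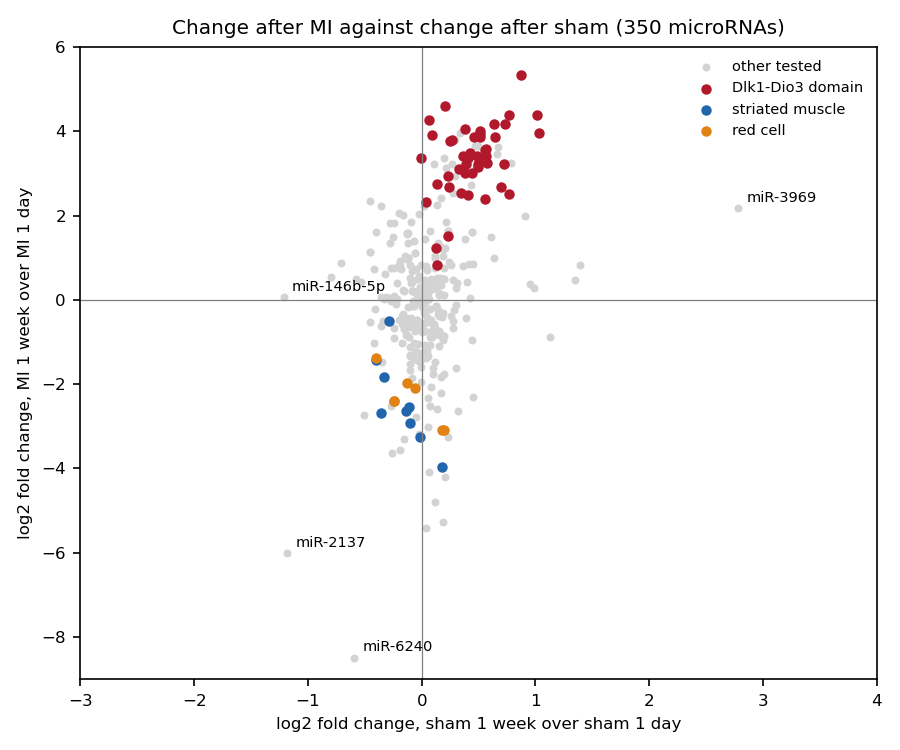
Log2 fold change of MI 1 week over MI 1 day (vertical axis) against that of sham 1 week over sham 1 day (horizontal axis) for 350 microRNAs, with members of 3 lists coloured. The sham changes run from -1.21 to 2.78, and those after MI from -8.49 to 5.35.

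In sham hearts 13 of the 46 members of the Dlk1-Dio3 domain were called higher, and the median log2 change of the 46 was 0.45. All 46 rose more after MI. For miR-127-3p the sham change was 0.50 (adjusted p = 0.0307), and the difference of the MI change from it was 2.79 ± 0.19 (adjusted p = 3.98e-08). On the scale of the 12 libraries it was at 12274 ± 1394 CPM in MI 1 week and 1258 ± 169.7 CPM in MI 1 day, and at 1499.9 ± 126 CPM in sham 1 week and 1064 ± 147 CPM in sham 1 day. The mean of MI 1 day thus lay between those of the sham groups.

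Other microRNAs stood in another order over the 4 groups. miR-223-3p was at 467 ± 94.8 CPM in MI 1 week and 2831 ± 684 CPM in MI 1 day, and at 105 ± 6.64 CPM in sham 1 week and 149 ± 24.04 CPM in sham 1 day, so MI 1 week was still above both sham groups. miR-133a-3p was at 17242 ± 9602 CPM in MI 1 week and 99290.0 ± 7239.8 CPM in MI 1 day, and at 202103 ± 7394 CPM in sham 1 week and 222415 ± 5496 CPM in sham 1 day, lowest in MI 1 week and next in MI 1 day. miR-21a-5p was at 53578 ± 10132 CPM in MI 1 week and 10436 ± 596 CPM in MI 1 day, and at 2904 ± 135 CPM in sham 1 week and 2867 ± 451 CPM in sham 1 day.

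**Figure D4:**
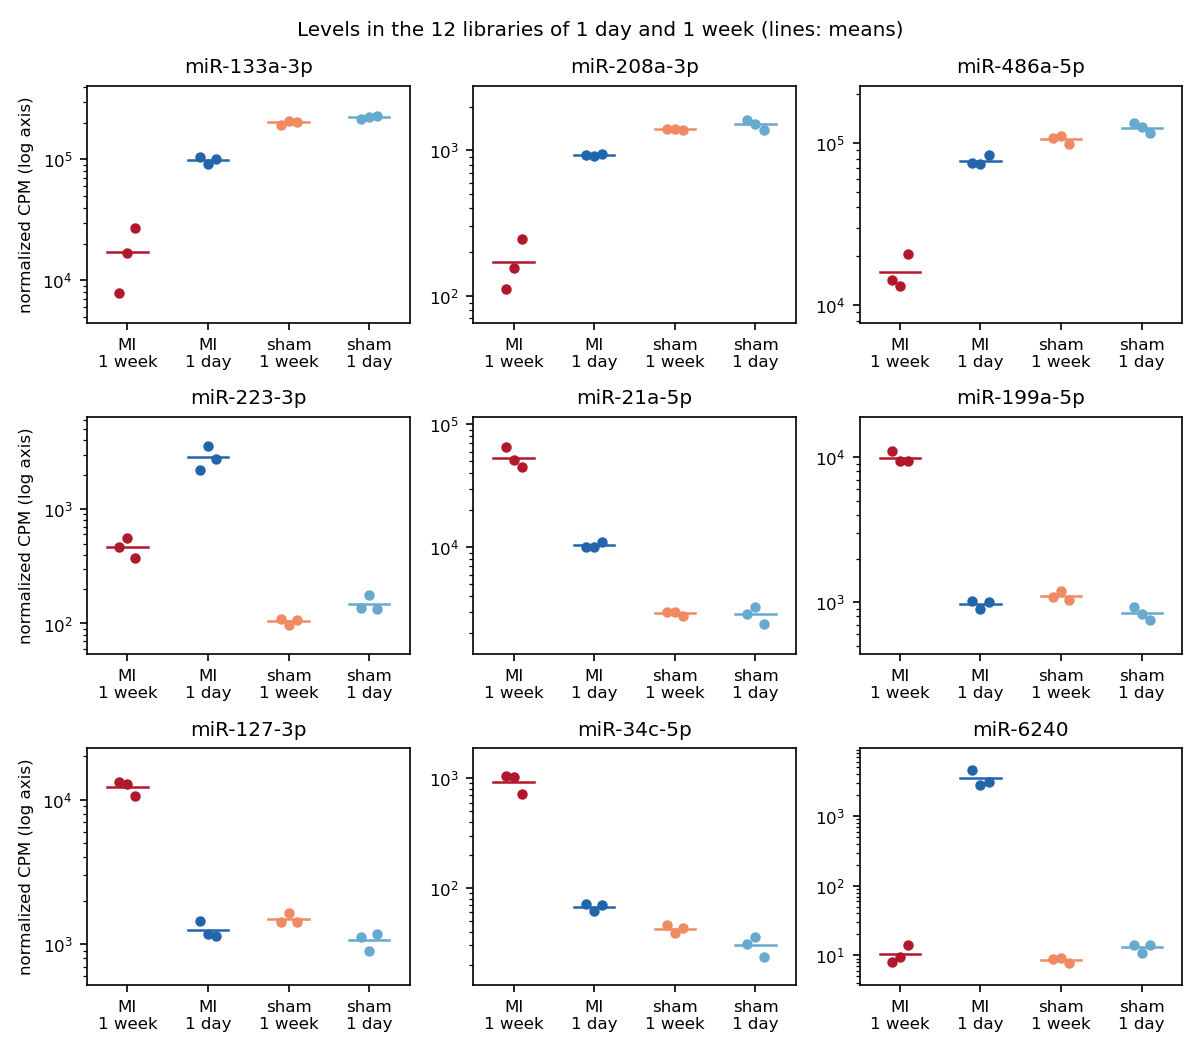
Normalized CPM (log axes) of 9 microRNAs in the 3 libraries of each of 4 groups, scaled together over 12 libraries, with means as lines. miR-199a-5p, miR-127-3p and miR-34c-5p are highest in MI 1 week, miR-223-3p and miR-6240 in MI 1 day, and miR-133a-3p, miR-208a-3p and miR-486a-5p are lowest in MI 1 week.

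The largest changes in sham hearts were those of miR-3969 (2.78), miR-27a-5p (1.39), miR-582-3p (1.35), miR-146b-5p (-1.21) and miR-2137 (-1.18). miR-2137 was near the floor there, with means of 0.501 CPM in sham 1 week and 1.15 CPM in sham 1 day. miR-3969 rose in MI hearts as well, with 22.8, 33.2 and 29.3 CPM at 1 week and 5.47, 7.21 and 6.02 CPM at 1 day (log2 2.18), and its MI change did not pass the test of a difference from the sham change (-0.47 ± 0.23, adjusted p = 0.08). miR-146b-5p, induced by inflammatory signals, did not pass in MI hearts (log2 0.07, adjusted p = 0.775), and its difference from the sham change was 1.42 ± 0.30 (adjusted p = 0.000781).

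For microRNAs that lie in genes, the host mRNA was set beside them. Of 61 pairs of a tested microRNA and its host, 52 had a host with at least 1 FPKM in 3 libraries, in 30 genes, of which 22 were higher (73.3%) and 4 lower (13.3%) at 1 week, shares near the 65.5% and 16.1% of all mRNAs. Both were called in 37 pairs, and in 27 of these both went in the same direction. In the other 10 pairs the microRNA was lower and the host mRNA higher, and with FPKM as deposited no pair had the reverse. Several pairs share a host, such as those of Dnm3os and those of Mcm7, so these counts are not of independent pairs. After quantile normalization 15 of the 30 hosts were higher and 12 lower, both were called in 41 pairs, and 32 of these went in the same direction. The microRNA was then lower and the host higher in 6 pairs, and the microRNA was higher and the host lower in 3, both arms of miR-21a with Vmp1 and miR-326-3p with Arrb1. The counts of opposite pairs therefore depended on the scaling of the mRNAs.

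Among pairs that rose together were miR-214-3p with Dnm3os, miR-455-5p with Col27a1, miR-152-5p with Copz2 and miR-218-5p with Slit3, whose mRNA was at 23.7 ± 3.63 FPKM at 1 week and 2.54 ± 0.194 FPKM at 1 day. miR-218-5p has 2 loci, on chromosomes 5 and 11, so its reads cannot be assigned to Slit3 alone. miR-199a-5p and miR-199a-3p, paired with Dnm3os in the counts above, also have 2 loci each. Opposite directions were measured for Mcm7, a replication gene whose intron holds miR-106b, miR-93 and miR-25. Mcm7 was at 9.85 ± 0.814 FPKM at 1 week and 2.86 ± 0.196 FPKM at 1 day (difference 1.49 ± 0.08 in log2(FPKM + 1), adjusted p = 9.96e-07). Of its microRNAs miR-106b-5p changed by -0.57, miR-93-5p by -0.48 and miR-25-3p by -0.74, but with totals alone the change was 0.01 for miR-106b-5p and 0.10 for miR-93-5p. miR-149-5p, in Gpc1, had 170.5, 255 and 369.9 CPM at 1 week and 1514, 1555 and 1481 CPM at 1 day (log2 -2.52 ± 0.26), while Gpc1 was at 29.3 ± 3.27 FPKM at 1 week and 16.6 ± 1.56 FPKM at 1 day. miR-139-5p, in the phosphodiesterase gene Pde2a, changed by -2.52 ± 0.13, and Pde2a did not pass the test (0.11 ± 0.09, adjusted p = 0.282), while after quantile normalization it was lower (-0.34, adjusted p = 0.013).

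**Figure D5:**
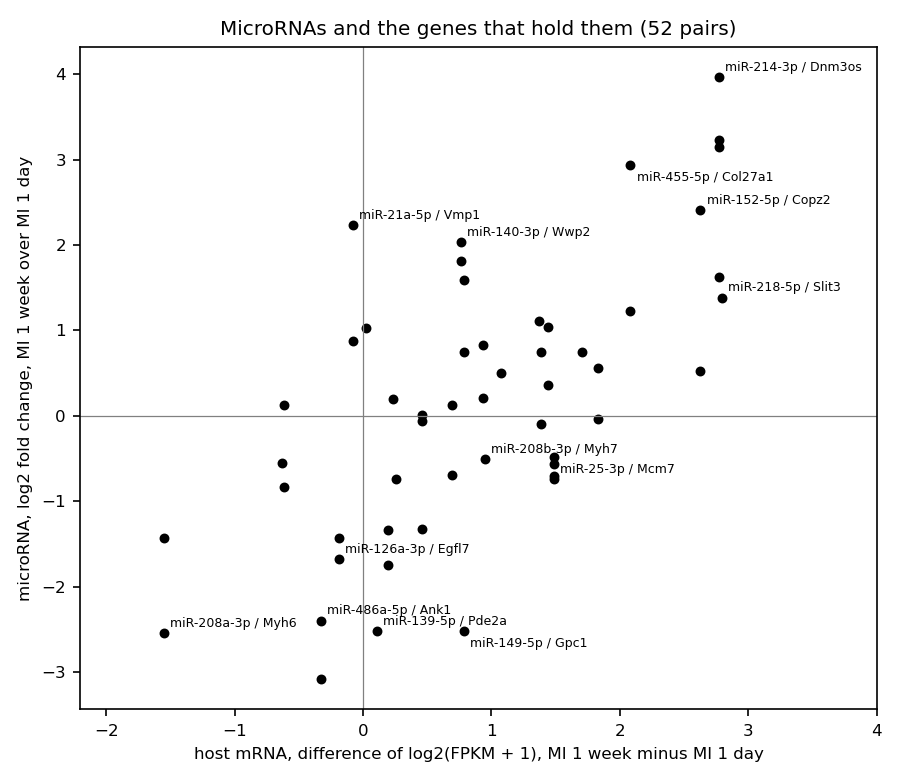
Log2 fold change of the microRNA (vertical axis) against the difference of its host mRNA in log2(FPKM + 1) (horizontal axis), MI 1 week against MI 1 day, for 52 pairs, some of which share a host. Pairs such as miR-214-3p and Dnm3os are high on both axes, and the Mcm7 microRNAs lie right of 0 and below it.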

How the data were processed

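Total RNA of left ventricles was made into small RNA and mRNA libraries by the authors. For small RNA they deposited whole-number counts of reads per mature microRNA and RPM, and for mRNA they deposited FPKM per gene. The submitters' processing notes list Cufflinks 2.2.1, Bowtie2 2.2.3 and TopHat2 2.0.13 as tools, while the small RNA mapper and microRNA annotation release are not given in the sources used here. Deposited RPM differed from count over library total by at most 0.02% where counts were at least 100.

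MicroRNAs with at least 10 RPM in 3 of the 6 infarct libraries were tested on the deposited counts with edgeR 4.0.16 (TMM factors, quasi-likelihood test, Benjamini-Hochberg adjustment over all 350, threshold 0.05) in R 4.3.3. Values printed are TMM-normalized CPM of that fit, and values of 4 groups come from a fit to 12 libraries, which also gave the sham change and the difference of the MI change from it. The mRNAs were tested with limma 3.58.1 on log2(FPKM + 1), which understates changes of low genes, keeping genes with at least 1 FPKM in 3 libraries. Named microRNAs were the 12 largest rises and 12 largest falls with a mean of at least 50 RPM that were called without overlap, the 10 most abundant, up to 4 abundant members of each list, 5 hairpins with the largest arm difference, the 5 largest sham changes, seed families and clusters, and microRNAs with a listed host gene. The members and lists were chosen with earlier results of these data known. Alternatives were other scalings, DESeq2 1.42.0, limma on log2 RPM, other filters, thinned reads, a replicate block and leaving out each library. The fits were tested on simulated data with rises and falls in equal number, so that test does not cover the dependence of the split on scaling. Infarct libraries held 12094554 to 31798587 microRNA reads, and the common dispersion was 0.0245. For microRNAs at a few CPM counting error adds to the spread between libraries. With 3 libraries a group an exact permutation test of 1 value cannot go below p = 0.1.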

Additional observations from a re-analysis of the deposited data

Results flagged for a closer look

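The 24 leading microRNAs of the comparison changed by a different amount between 1 day and 1 week after MI than after sham, by the edgeR test of that difference, with adjusted p-values from 1.78e-09 to 9.33e-06. The MI change minus the sham change, in log2, was 3.66 for miR-341-3p, 3.76 for miR-214-3p, 3.55 for miR-409-5p, 3.49 for miR-541-5p, 3.35 for miR-434-5p and 3.63 for miR-31-5p. It was 3.28 for miR-34c-5p, 3.14 for miR-409-3p, 3.13 for miR-410-3p, 3.19 for miR-134-5p, 2.94 for miR-182-5p and 2.96 for miR-300-3p. Among the falls it was -7.78 for miR-6240, -4.72 for miR-2137, -4.30 for miR-466i-5p, -4.02 for miR-133a-5p, -3.03 for miR-378b and -3.35 for miR-5099. It was -3.04 for miR-378d, -3.17 for miR-486b-3p, -3.14 for miR-486a-3p, -2.96 for miR-378c, -2.71 for miR-499-5p and -2.09 for miR-223-3p. For all 24 the difference had the sign of the MI change. They were chosen for the largest changes in these same MI libraries, and sham changes were small, with a median size of 0.16 in log2. This result was therefore largely set by the choice. Of all 287 microRNAs called in MI hearts, 260 differed from the sham change in the same direction.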

How the results depend on the processing

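All 452 values of the 24 leading microRNAs under the alternatives kept their direction and their call, which their choice as the largest changes largely set. Of all calls, 138 of the 158 higher and 77 of the 129 lower ones were the same under all 4 other scalings. Fewer microRNAs were lower with library totals alone (77) and with limma on log2 RPM with a pseudocount of 1 (76) or 10 (77). Without a filter 240 of 624 were higher, and among 209 with a mean of at least 50 RPM the refit gave 87 higher and 74 lower. Keeping 1 of each set of microRNAs with equal counts, chosen after seeing the data, gave 154 higher and 119 lower. Leaving out each library gave 138 to 153 higher and 120 to 129 lower. For the sham comparison RLE factors gave 21 higher, DESeq2 12 lower, a fit to 18 libraries 12 higher and 8 lower, and leaving out a library 10 to 39 higher and 3 to 8 lower. After quantile normalization 12 host mRNAs were lower. Replicate numbers did not pair the libraries (correlations of deviations -0.217, 0.121 and -0.0299), and the replicate block gave 153 higher and 126 lower. With totals alone, limma with a pseudocount of 1 and with 10, changes turned to 0.10, 0.09 and 0.09 for miR-26a-5p, 0.20, 0.20 and 0.19 for miR-29b-3p, 0.01, 0.03 and 0.03 for miR-106b-5p and 0.52, 0.53 and 0.50 for miR-210-3p, and to 0.10 in each for miR-93-5p and 0.09 in each for let-7a-5p. The cause of these differences was not tested.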

Other observations

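On the scale of the 12 libraries 41 of the 350 microRNAs were at least 8-fold above each other group in MI 1 week. Of the 41, 30 were in the Dlk1-Dio3 list, which held 46 of the 350. In MI 1 day 10 microRNAs were at least 8-fold above each other group, among them miR-6240 and miR-2137. None of the 10 was in a list. The filter used the infarct libraries alone, and it had a part in both counts. It let in 71 microRNAs that reached 10 RPM in each MI 1 week library but not in each MI 1 day library, and 20 the reverse. The MI 1 day libraries were also the shallowest.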
